A study of Mus musculus with 7 samples.

Results

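The interferon-stimulated genes described here are 36 genes that cells switch on when they sense an interferon, chosen by symbol from a list and read in mouse Treg cells (regulatory T cells), a CD4 lineage that holds other immune cells in check and depends on the transcription factor Foxp3. All 36 were found among the 15815 genes of the table, and all 36 were abundant enough to be tested. They were divided by the interferon that mainly induces them into 24 type I members, 11 type II members and Ly6a, which either type induces. No value of these data entered the choice or the division, although both were made with earlier results of these data known.

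The Treg cells came from 2 groups, KO (Hpgd-deficient, 3 libraries) and WT (4 libraries). Both were YFP+ cells of the strain C57BL/6JRcc, given to Rag-/- hosts together with WT naive T cells and WT Treg cells, and sorted by YFP from mesenteric lymph nodes (mLN) 8 weeks later. All 7 samples carry the same line label, a floxed Hpgd allele with YFP and Cre recombinase under Foxp3, which deletes Hpgd in Treg cells, so only the sample titles tell WT from KO. Rag-/- hosts make no T or B cells of their own but keep their other blood and tissue cells. The labels do not say whether each library came from its own host, nor the age or sex of the mice, so p-values measure the spread between libraries, part of which may be technical. Levels are normalized counts, and log2 differences are KO minus WT on the log2(normalized count + 1) scale.

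Type I interferons (interferon alpha and beta) bind the receptor IFNAR, whose kinases JAK1 and TYK2 activate the complex ISGF3, which contains STAT2 and IRF9. ISGF3 binds the interferon-stimulated response element (ISRE) and switches on antiviral genes such as Isg15, the Ifit and Oas families and Mx1. Type II interferon (interferon gamma) acts through IFNGR, JAK1 and JAK2 on genes that carry the gamma-activated site (GAS). It induces IRF1, the GTPases of the GBP and immunity-related (IRG) families, and the immunoproteasome and peptide transporter genes of the major histocompatibility complex (MHC). Most of these genes respond to both interferons to some degree, so the classes mark the main inducer and not an exclusive one.

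The libraries held between 4135733 reads (KO 3) and 10622507 reads (WT 4). Hpgd, the deleted gene, had 0.759, 2.42 and 5.52 normalized counts in KO 1 to 3 and 18.7, 9.96, 10.2 and 13.4 in WT 1 to 4, from 7 reads in KO and 56 in WT. Reads from exons that the deletion leaves in place would still count toward the gene. WT 2 and KO 3 stood apart from the other libraries on the first principal component over all tested genes (35.1% of the variance), at 81.9 and -61.0. The other 5 libraries lay between -31.6 and 10.5. WT 2 held the highest value of 29.2% of all tested genes and the lowest value of 27.1%, and ribosomal protein genes took 7.57% of its reads, against 4.38% to 5.52% in the others. Class counts, and many of the gene estimates, are therefore also given without WT 2.

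Promoter sequences show the elements near the start sites of members from both classes. RefSeq promoter windows (GRCm38.p6, the assembly of mm10) were found for 26 of the 36 members, each reaching from 250 bases before to 50 bases after an annotated start. An ISRE core was searched on both strands as 2 copies of GAAA with any 2 bases between them, and a GAS as TTCNNNGAA, which reads the same on both strands. The ISRE core stood in 10 of 17 type I members and 4 of 9 type II members with a window, against 3.99% of all 27025 genes with a window (3.44% of 32851 windows). The GAS letters stood in 4 of the 17 type I and 3 of the 9 type II members, against 9.55% of all genes with a window (8.30% of windows). A gene with several start sites counted once if any of its windows held the motif. Overlapping matches were allowed. A match describes these letters and is not evidence that a factor binds there. The 180 bases before the start site are shown for 6 members that the results turn on, 5′ to 3′ on the gene's strand, with ISRE and GAS matches in capitals.
Isg15 (chr4:156200819-156200998, minus strand): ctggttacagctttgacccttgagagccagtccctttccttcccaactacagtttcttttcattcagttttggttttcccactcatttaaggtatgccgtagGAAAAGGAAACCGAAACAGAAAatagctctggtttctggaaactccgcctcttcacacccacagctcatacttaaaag
Ifit3 (chr19:34583349-34583528, plus strand): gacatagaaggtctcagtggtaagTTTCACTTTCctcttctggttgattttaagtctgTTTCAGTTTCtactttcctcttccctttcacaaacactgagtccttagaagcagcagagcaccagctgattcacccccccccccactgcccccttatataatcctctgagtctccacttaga
Oas1a (chr5:120907526-120907705, minus strand): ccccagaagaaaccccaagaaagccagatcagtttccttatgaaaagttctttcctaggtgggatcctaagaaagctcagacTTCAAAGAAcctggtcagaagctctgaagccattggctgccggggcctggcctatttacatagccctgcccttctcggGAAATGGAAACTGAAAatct
Gbp2 (chr3:142620483-142620662, plus strand): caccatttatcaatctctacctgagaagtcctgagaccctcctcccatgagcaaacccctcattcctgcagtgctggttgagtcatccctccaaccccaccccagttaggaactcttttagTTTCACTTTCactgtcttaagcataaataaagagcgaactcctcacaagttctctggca
Igtp (chr11:58199376-58199555, plus strand): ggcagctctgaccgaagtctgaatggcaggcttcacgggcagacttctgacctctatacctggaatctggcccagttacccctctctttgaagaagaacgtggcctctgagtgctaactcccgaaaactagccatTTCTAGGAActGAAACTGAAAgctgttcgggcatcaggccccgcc
Irf1 (chr11:53769834-53770013, plus strand): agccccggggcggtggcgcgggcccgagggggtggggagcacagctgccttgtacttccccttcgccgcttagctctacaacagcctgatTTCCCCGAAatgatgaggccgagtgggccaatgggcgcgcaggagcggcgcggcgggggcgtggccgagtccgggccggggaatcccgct
The Isg15 window holds 3 overlapping ISRE cores, the outermost starting 78 bases before the start site. Ifit3 holds 2 separate cores, read on the opposite strand, and Oas1a has 2 overlapping cores close to the start with GAS letters farther out. Gbp2, a type II member, also carries an ISRE core, while Igtp has GAS letters starting 45 bases and an ISRE core starting 34 bases before the start. Irf1 has the GAS letters alone, starting 90 bases before the start.

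Compared per length of annotated exon, the members spanned a wide range in these Treg cells. Ifi27l2a, a small interferon-induced membrane protein gene, led with 6382 normalized counts per kilobase in KO and 11637 in WT. Ly6a, which encodes the surface protein Sca-1, followed with 4584 in KO and 4968 in WT. Next came the IRG gene Igtp with 3765 in KO and 3247 in WT, and the immunoproteasome gene Psmb8 with 1844 in KO and 2111 in WT. At the low end stood Ifi44 with 3.37 per kilobase in KO and 9.19 in WT, and Oas2, an antiviral RNA-activated synthetase gene, with 9.36 in KO and 13.9 in WT. These 2 genes rested on as few as 5 and 3 reads in their poorest library, so their differences are the least precise of the list. Exon length is that of all annotated exons merged (GENCODE M21) and can differ from the transcripts that were expressed.

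The type I members varied together from library to library, and the order of the libraries did not follow genotype. Each member's log2 level was set against its own mean over the 7 libraries. Averaged over the 24 type I members, this deviation was 0.22, -0.43 and -0.45 in KO 1 to 3 and 0.33, 0.77, -0.41 and -0.03 in WT 1 to 4. WT 2 was thus highest, followed by WT 1 and KO 1, while WT 3, KO 2 and KO 3 were lowest and lay close together. Over all tested genes the same average stayed between -0.09 and 0.05 in every library. The scaling of the libraries brings the typical gene near its own mean, so these values near 0 partly follow from the scaling. They do not show how far a group of genes that vary together can deviate. The average of the 11 type II members varied less, at 0.10, 0.04 and 0.01 in KO 1 to 3 and -0.13, 0.11, -0.23 and 0.09 in WT 1 to 4. In WT 2 this average joined opposing members, 7 at their highest level of the 7 libraries and 3 at their lowest.

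**Figure D1:**
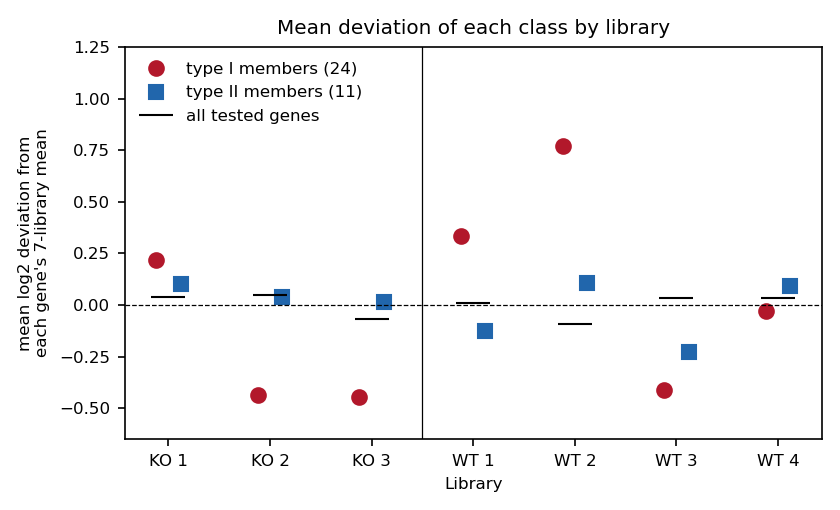
Mean log2 deviation of the 24 type I members (red circles), the 11 type II members (blue squares) and all tested genes (black dashes) from each gene's own mean over the 7 libraries, for KO 1 to 3 and then WT 1 to 4. The type I mean reaches 0.77 in WT 2 and lies between -0.45 and -0.41 in KO 2, KO 3 and WT 3, whereas the type II mean stays between -0.23 and 0.11.

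This order was read from the class mean after the values were seen, so the counts of single genes that follow describe how evenly the members shared it and are no separate evidence. KO 1 and WT 1 both lay above KO 2 and WT 3 for 19 of 24 type I members (79.2%), 3 of 11 type II members and 19.4% of all tested genes. WT 2, WT 1 and KO 1 were the highest 3 libraries for 11 type I members (45.8%) and for 6.81% of all tested genes. WT 2 held the highest value of 17 type I members (70.8%) and of 7 type II members (63.6%), against 29.2% of all tested genes. The median Pearson r over the 276 pairs of type I members was 0.58 across the 7 libraries, against -0.003 over all pairs of tested genes. It was 0.47 without WT 2. Among the 55 pairs of type II members it was 0.29, and between the classes 0.28, with values of 0.45 and 0.13 without WT 2. With the mean of each genotype removed first, the medians were 0.60 within type I, 0.30 within type II and 0.46 between the classes. These correlations share the libraries and their scaling and are given as descriptions. The coefficient of variation over the 7 libraries had a median of 41.6% in type I members and 20.2% in type II members. Its median was 27.8% in all tested genes, whose levels differ from the members' own. Type I members were also less abundant, with mean log2 levels of 8.35 in KO and 8.74 in WT, against 11.6 and 11.5 for type II. The spreads of the 2 classes are therefore not compared at equal levels.

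**Figure D2:**
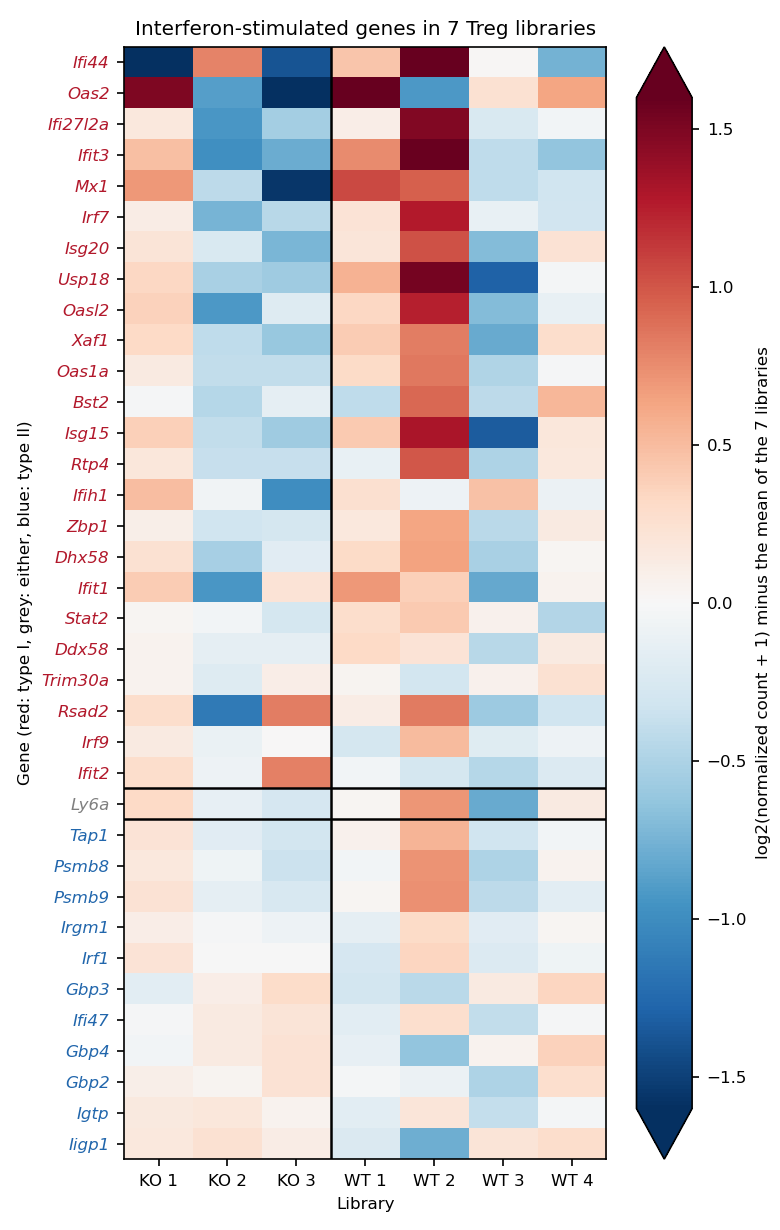
Log2 level of each of the 36 genes (rows) minus its mean over the 7 libraries (columns, KO left of WT), with higher values in red and lower values in blue, and type I genes above Ly6a and type II genes. WT 2 is the reddest column for type I genes, and within type II it is red for Psmb8, Psmb9 and Tap1 and blue for Gbp3, Gbp4 and Iigp1.

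**Figure D3:**
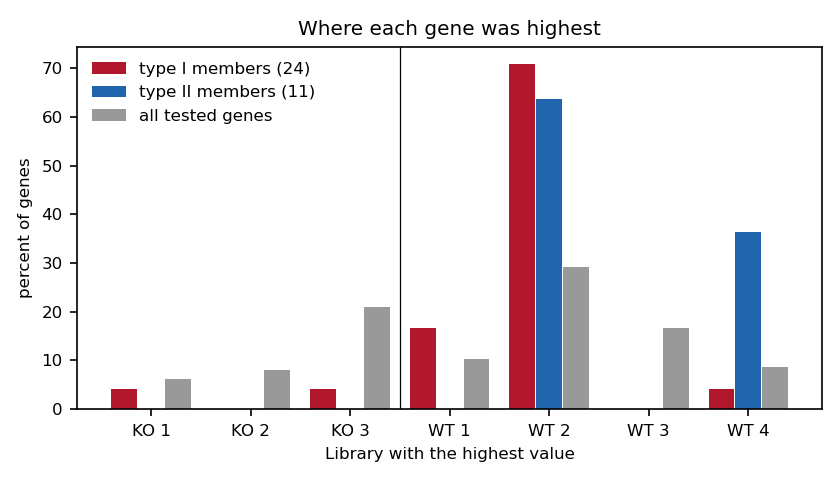
Percent of type I members (red), type II members (blue) and all tested genes (grey) whose highest value lay in each library. WT 2 takes 70.8% of type I and 63.6% of type II members against 29.2% of all tested genes, and WT 4 takes the other 4 type II members.

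Between KO and WT, none of the 36 members passed the limma test after Benjamini-Hochberg adjustment over all tested genes, the share of all 11787 tested genes that passed being 0%. The smallest member adjusted p was 1.00 after rounding. At an unadjusted p under 0.05 there were 0 members, against 1.79% of all tested genes (0.781% higher and 1.01% lower in KO), and voom on the recovered reads also gave 0. Other settings gave 6 members without WT 3, 5 without KO 1, 2 without KO 2, 2 without WT 4, 1 with array weights and 1 without WT 2 and KO 3 together, none of which passed after adjustment. The genes at this level over all 11787 tested numbered 363 without WT 3 and 325 without KO 1, against 211 with all libraries. Leaving out KO 2 gave 221 such genes, and dropping WT 4 gave 246. Array weights gave 579, and removing both WT 2 and KO 3 gave 400. The groups of libraries overlapped for every member, against 3.65% of all tested genes whose groups did not overlap (1.71% higher and 1.93% lower in KO). The estimates of these members nevertheless divided by class, which those of the further genes read below did not. Among those genes 32 of 70 type I and 19 of 39 type II genes had lower estimates in KO (medians 0.03 and 0.01). Of the 24 type I members 22 had lower estimates in KO (median log2 difference -0.35), and of the 11 type II members 3 had (median 0.14), while 48.2% of all tested genes had lower estimates and their median was 0.01. These counts describe genes that vary together and carry no test. Without WT 2 they were 19 of 24 (median -0.12) and 0 of 11 (median 0.10), with 49.3% of all tested genes lower. Without WT 2 and KO 3 together they were 15 of 24 (median -0.07) and 2 of 11 (median 0.15). The type I median moved to -0.60 without KO 1 and to -0.57 without WT 3. The type II median was 0.22 without KO 1, 0.06 without WT 1, 0.08 without WT 3 and 0.21 without WT 4. The 95% interval of every member included 0, extending between 0.42 and 1.87 log2 units to either side for type I members and between 0.41 and 0.58 for type II members.

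**Figure D4:**
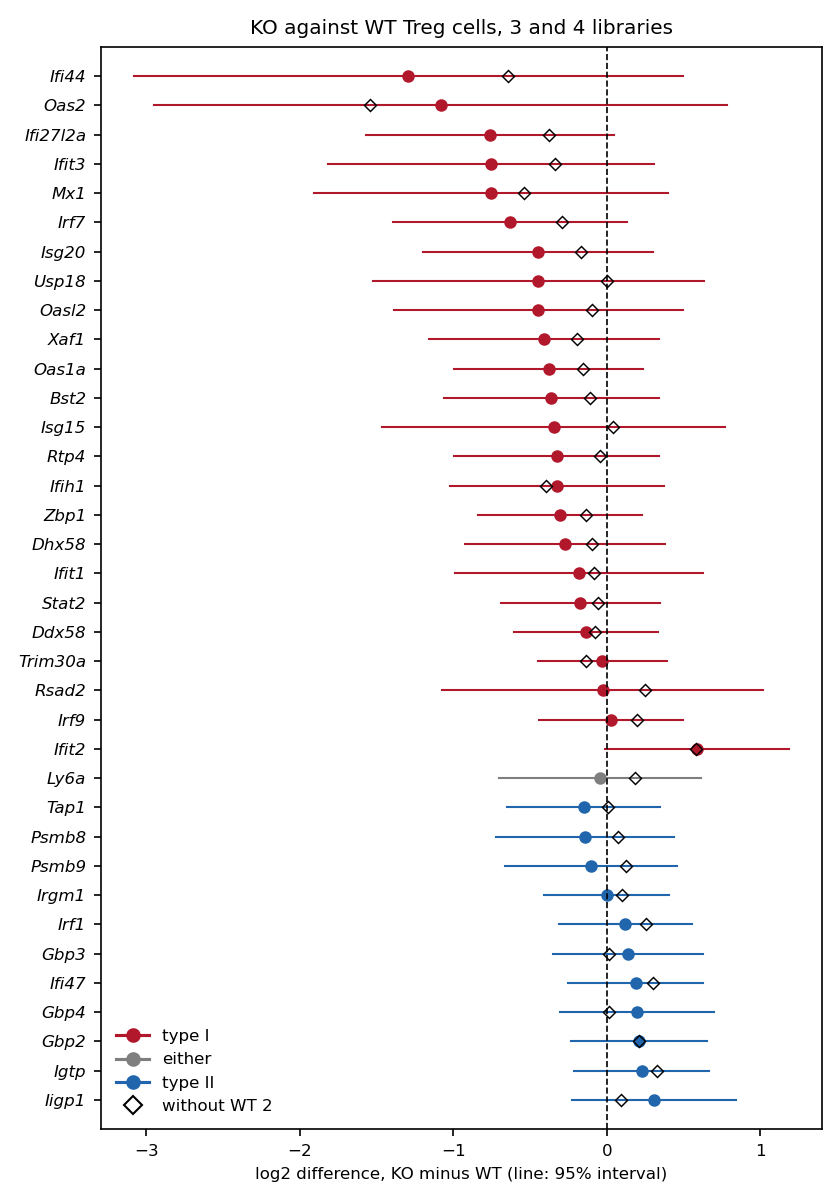
Log2 difference of each gene, KO minus WT, from the limma fit (filled circles; red type I, grey Ly6a, blue type II) with its 95% interval, and the same estimate without WT 2 (open diamonds). All intervals cross 0, and 22 of 24 type I circles lie below 0 whereas 8 of 11 type II circles lie above it.

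Among the transcription factors of the type I response, Irf7, which amplifies interferon alpha production, had 422, 232 and 285 normalized counts in KO and 454, 943, 359 and 316 in WT. KO 1 lay between WT 3 and WT 1, KO 2 and KO 3 lay below every WT library, and WT 2 stood well above all others. The log2 difference was -0.63 (SE 0.35; limma adjusted p = 1.00), and -0.29 without WT 2. Stat2, the ISGF3 subunit specific to interferon receptors of type I and III, had 571, 540.5 and 459.7 in KO and 678, 745, 587 and 401 in WT. Irf9, the DNA-binding subunit of ISGF3, had 1516, 1272 and 1381 in KO and 1128, 1941, 1201 and 1298 in WT. Both factors overlapped between the groups, with log2 differences of -0.17 (SE 0.24) for Stat2 and 0.03 (SE 0.22) for Irf9. Usp18, a feedback inhibitor that binds IFNAR2 and removes ISG15 from proteins, had 618, 343 and 331 in KO and 723, 1431, 200.2 and 482 in WT. WT held both its highest and its lowest value, 7.15-fold apart, and the log2 difference of -0.45 (SE 0.50) shrank to 0.00 without WT 2.

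Of the antiviral effectors, Ifi27l2a had 4261, 1998 and 2606 in KO and 4079, 10559.7, 3217 and 3696 in WT. WT 1, WT 3 and WT 4 all lay inside the range of the KO libraries, and the log2 difference was -0.76 (SE 0.37; limma adjusted p = 1.00) with WT 2 and -0.38 without it. Isg15, the ubiquitin-like modifier, had 150.3, 87.2 and 77.2 in KO and 155, 288, 45.2 and 131 in WT, with its lowest value in WT 3 (-0.35, SE 0.52). The sign of that estimate turned without WT 2, to 0.04, and the estimate was -0.16 without KO 3 and -0.84 without WT 3. Ifit3, an RNA-binding antiviral protein gene, had 574, 208 and 237 in KO and 693, 1231, 309 and 266 in WT. KO 1, WT 1 and WT 2 were high and the other 4 libraries low, 2 from each group, for a log2 difference of -0.75 (SE 0.49). It was -0.34 without WT 2, -0.48 without KO 2 and -1.21 without KO 1. Mx1, a gene of the Mx GTPase family, showed the same 3 high libraries. It had 170.0, 78.4 and 34.9 in KO and 219, 205, 79.2 and 84.3 in WT. The log2 difference of Mx1 was -0.75 (SE 0.53), and it was -1.31 without KO 1 and -0.19 without KO 3. Ifit1, which binds viral RNA ends, had 749.8, 296 and 662 in KO and 917, 738, 321 and 593 in WT (-0.18, SE 0.37; 0.23 without KO 2).

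The oligoadenylate synthetase genes, whose products activate RNase L on double-stranded RNA, followed the library order unequally. Oas1a had 1081, 744 and 743 in KO and 1216, 1752, 701 and 966 in WT (-0.38, SE 0.28; -0.15 without WT 2). Oas2 had 101, 18.6 and 5.52 in KO and 133, 18.1, 41.8 and 54.8 in WT, so that WT 2 was among its lowest libraries (-1.08, SE 0.86; -0.16 without KO 3 and -2.14 without KO 1). The related Oasl2 had 222, 90.5 and 149 in KO and 217, 408, 106 and 159 in WT (-0.45, SE 0.43; -0.10 without WT 2). Ifi44 had 7.59, 45.2 and 9.19 in KO and 35.2, 149, 26.01 and 14.8 in WT, and its estimate (-1.29, SE 0.83) was the most negative of the list with all libraries. That value was -0.64 without WT 2, -0.85 without KO 1, -2.06 without KO 2 and -0.19 with array weights, and without KO 1 or WT 2 Oas2 was lower, at -2.14 and -1.54. Near-identical members of the Ifit, Oas, Trim30 and Gbp families can share reads, so how reads were divided between copies is uncertain.

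Bst2, the tetherin gene that retains budding virus, had 405, 299.7 and 373 in KO and 311, 777, 306 and 594 in WT (-0.36, SE 0.32; -0.11 without WT 2). Isg20, an RNA exonuclease gene, had 713, 524 and 371 in KO and 709.5, 1258, 383 and 727 in WT (-0.45, SE 0.35; -0.17 without WT 2 and -0.21 without KO 3). Rtp4 had 781, 533 and 533 in KO and 636, 1372.5, 491 and 778 in WT (-0.33, SE 0.31; -0.04 without WT 2). WT 2 was highest in all 3 genes, and the KO values lay inside the WT range except Bst2 in KO 2 and Isg20 in KO 3, which were just below it. Xaf1 (-0.41, SE 0.35; -0.19 without WT 2) and Zbp1, a sensor of left-handed nucleic acid that can start necroptosis (-0.30, SE 0.25; -0.13 without WT 2), had the same shape, with 773, 467 and 406 in KO against 821, 1094, 354 and 755 in WT for Xaf1. For Zbp1 the values were 840.1, 632 and 649 in KO and 891, 1225, 587 and 872 in WT. Rsad2, the viperin gene, was high in KO 3 and WT 2, with 119.9, 44.4 and 175 in KO and 108, 177, 65.6 and 78.7 in WT (-0.03, SE 0.48; 0.25 without WT 2).

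The cytosolic RNA sensors are themselves induced by the interferons whose production they start. Ddx58, which encodes RIG-I, had 999, 872 and 875 in KO and 1201, 1124, 707 and 1061 in WT (-0.13, SE 0.22). Ifih1, which encodes MDA5, had 469, 319.9 and 165 in KO and 396, 314, 459 and 311 in WT, highest in KO 1 and lowest in KO 3 (-0.32, SE 0.32; 0.08 without KO 3). Dhx58, which encodes their regulator LGP2, had 357, 208 and 267 in KO and 372, 471, 210.4 and 309 in WT (-0.27, SE 0.30; -0.10 without WT 2). Trim30a, a ubiquitin ligase gene, varied least of the type I members over the 7 libraries (coefficient of variation 12.7%), with 1975, 1646 and 2056 in KO and 1959, 1548, 1995 and 2258 in WT, and WT 2 was its lowest library (-0.03, SE 0.19).

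Ifit2, an RNA-binding member of the Ifit family, had the highest estimate of its class, in which only Irf9 (0.03) also had an estimate above 0. It had 248, 194 and 359 in KO and 198, 167, 148 and 176 in WT, so that WT 1 alone lay above the lowest KO library. Its log2 difference was 0.59 (SE 0.28; 95% interval -0.01 to 1.19; unadjusted p = 0.0533 and adjusted p = 1.00 in limma), the smallest p of the 36 members. WT 2, the highest library for most type I members, was the second lowest for Ifit2. The estimate was 0.58 without WT 2 and 0.35 without KO 3.

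**Figure D5:**
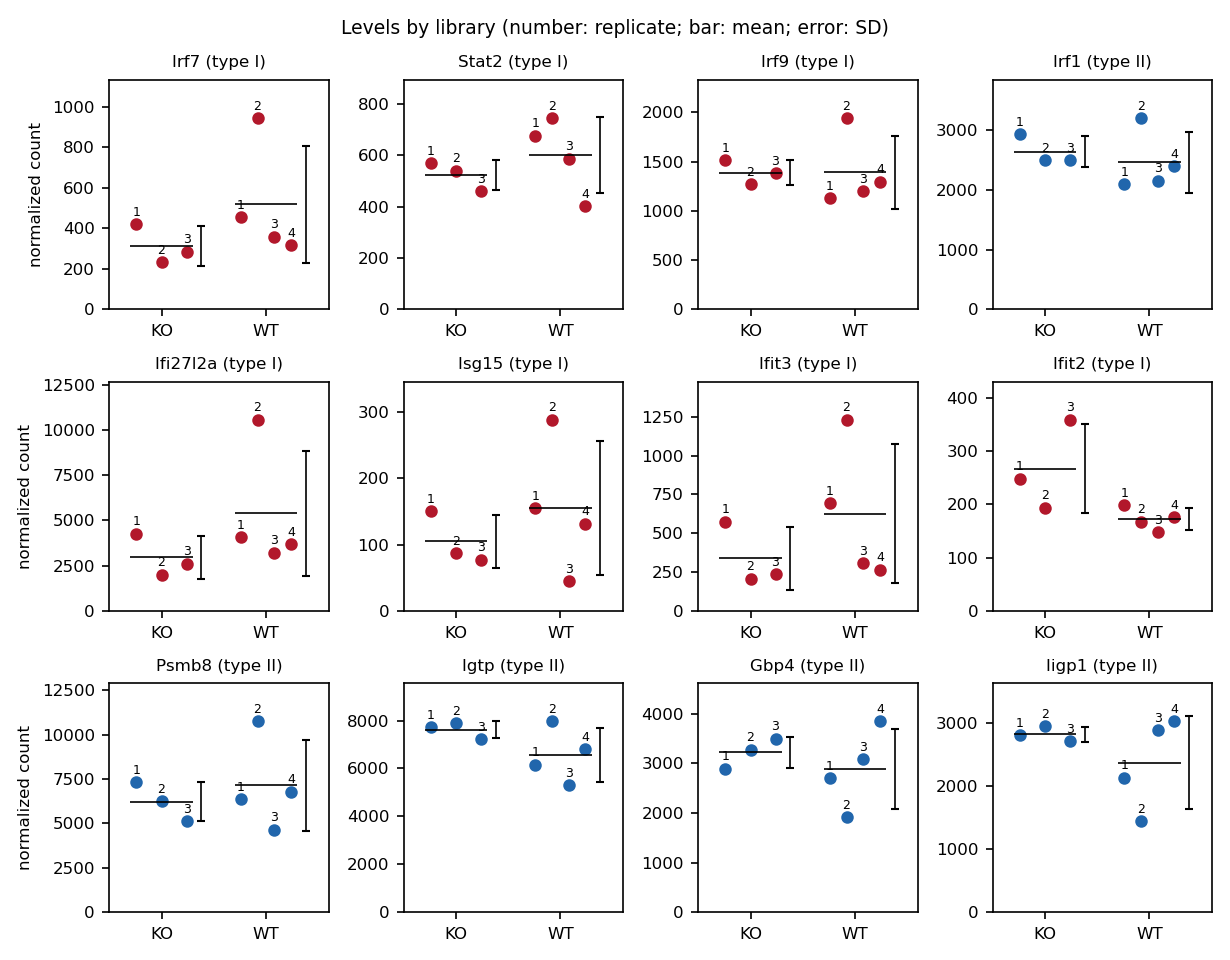
Normalized counts of 12 genes in each KO library (left) and WT library (right), numbered by replicate, with the group mean (bar) and its SD (error bar); axes start at 0. The type I genes Irf7, Ifi27l2a, Isg15 and Ifit3 peak in WT 2, Ifit2 peaks in KO 3, and Gbp4 and Iigp1 have their lowest value in WT 2.

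The 11 type II members had smaller differences between libraries. Irf1, the transcription factor that carries much of the interferon gamma response, had 2930.1, 2498 and 2489.8 in KO and 2089, 3196, 2151 and 2389.7 in WT (0.12, SE 0.20; limma adjusted p = 1.00; 0.25 without WT 2). The IRG GTPase genes act on the vacuoles of intracellular pathogens. Igtp had 7726, 7891 and 7221 in KO and 6158, 7969.6, 5318 and 6818 in WT, where WT 2 alone lay above the KO libraries (0.23, SE 0.20; 0.33 without WT 2). Ifi47 had 4289, 4805 and 5005 in KO and 3860.0, 5234, 3305 and 4294 in WT (0.19, SE 0.20). Irgm1 had 2112, 1933 and 1846 in KO and 1769.9, 2414, 1722 and 2000.3 in WT (0.00, SE 0.19). Iigp1 (chromosome 18) had 2798, 2947 and 2710.5 in KO and 2132, 1448, 2877 and 3022 in WT, the most positive type II estimate with all libraries (0.31, SE 0.25), which was 0.09 without WT 2.

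The guanylate-binding protein genes, whose products coat and break pathogen vacuoles, were not high in WT 2. Gbp2 had 2605, 2515 and 2876 in KO and 2390.4, 2284, 1736 and 2950.6 in WT (0.21, SE 0.21). Gbp3 had 1339.5, 1620.6 and 1854 in KO and 1232, 1118, 1660.3 and 1916 in WT (0.14, SE 0.23; 0.01 without WT 2). Gbp4 had 2895, 3277 and 3501 in KO and 2708, 1924, 3083 and 3851 in WT (0.20, SE 0.23; 0.02 without WT 2). WT 4 was highest for all 3 genes and for Iigp1, and WT 2 was lowest for Gbp3, Gbp4 and Iigp1. Ifng, the gene of interferon gamma itself, was also highest in WT 4, with 28.8, 60.6 and 97.5 in KO and 38.5, 22.6, 26.01 and 219 in WT. Whether it had a part in these levels was not tested.

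The antigen processing members lie side by side in the MHC on chromosome 17. Psmb8 (34197721 to 34201454, mm10, plus strand) encodes an immunoproteasome subunit and had 7323, 6238 and 5141 in KO and 6355, 10747, 4652 and 6792 in WT (-0.14, SE 0.27). Psmb9 (34181987 to 34187764, minus strand), a second subunit, had 2376, 1829.8 and 1688 in KO and 2074, 3366, 1512 and 1798 in WT (-0.10, SE 0.26). Tap1 (34187553 to 34197225, plus strand), one chain of the peptide transporter, had 4100.3, 3132 and 2881 in KO and 3717, 5169, 2844 and 3424 in WT (-0.15, SE 0.23). They were the only 3 type II members with lower estimates in KO, and without WT 2 all 3 turned positive, at 0.08, 0.13 and 0.01. Psmb9 and Tap1 overlap on opposite strands, and the library protocol keeps no strand, so reads from the overlap cannot be assigned between them.

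Within type II the 7 members that were highest in WT 2 (Psmb8, Psmb9, Tap1, Irf1, Igtp, Irgm1 and Ifi47) and the 4 that were highest in WT 4 (Gbp2, Gbp3, Gbp4 and Iigp1) formed 2 sets, drawn after their values were seen. The median Pearson r over 7 libraries was 0.78 within the first set, 0.61 within the second and -0.45 between them. Without WT 2 the values were 0.61, 0.60 and 0.22, and the opposition of the 2 sets was not seen. As the sets were split by their highest library, these values partly follow from the split and are no evidence for it. Ly6a was also highest in WT 2, with 6913, 5052 and 4604 in KO and 5631, 9038, 3166 and 6111 in WT (-0.04, SE 0.30; 0.19 without WT 2).

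The spread between libraries was wider in WT than in KO for 18 of 24 type I and 11 of 11 type II members on the log2 scale, against 63.4% of all tested genes. Without WT 2 this held for 12 of 24 and 8 of 11 members, against 47.6% of all tested genes.

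The receptors and kinases that receive interferons were present in both groups. The receptor chain genes Ifnar1 (0.13, SE 0.19), Ifnar2 (0.07, SE 0.20), Ifngr1 (0.07, SE 0.21), Ifngr2 (-0.11, SE 0.31) and Il10rb (0.08, SE 0.20) did not pass, nor did the kinase genes Jak1 (0.13, SE 0.18), Jak2 (0.22, SE 0.23) and Tyk2 (-0.14, SE 0.21). Of 8 genes that restrain the pathway 0 passed, 3 with higher and 5 with lower estimates (median -0.02). Socs1, a feedback inhibitor of JAK kinases, had 1450.3, 928 and 1006 in KO and 1090.1, 2078, 1290.5 and 1188 in WT, with WT 2 highest (-0.30, SE 0.25). The others were Socs3 (0.05, SE 0.27), Pias1 (-0.07, SE 0.19), Pias3 (-0.08, SE 0.28), Ptpn1 (0.00, SE 0.22), Ptpn2 (0.24, SE 0.23), Ptpn6 (0.01, SE 0.22) and Ptpn11 (-0.05, SE 0.22).

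Genes that sense nucleic acid and induce interferon had 4 higher and 13 lower estimates among 17 tested (median -0.06), and without WT 2 there were 9 lower. None passed. Of 21 interferon genes on the list 19 were not analysed here, and of the other two Ifng was tested (0.22, SE 0.72) while Ifnz had at most 14.7 normalized counts in any library.

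Further interferon-induced genes were read beside the members. For 70 further type I genes the estimate was higher in KO 38 times and lower 32 times (median 0.03), and 0 passed. WT 2 was highest for 42.9% and lowest for 28.6% of them. KO 1 and WT 1 lay above KO 2 and WT 3 for 54.3%, against 19.4% of all tested genes. Other sets shared this order, at 41.0% of the 39 tested further type II genes and 44.4% of the receptor and signalling genes. It held for 37.5% of the restraining genes, 35.3% of the induction genes and 0% of the 10 T and Treg cell markers. The order was thus not particular to type I genes. Of the further type I genes the 4 with the smallest p, none of which passed, were Mx2 (-1.44, SE 0.82), Aim2 (0.40, SE 0.24), Trim12c (0.52, SE 0.33) and Ly6c1 (0.76, SE 0.49). Mx2, the second Mx GTPase gene, had 52.4, 16.2 and 3.68 in KO and 62.7, 73.3, 14.7 and 49.9 in WT. Aim2, a cytosolic DNA sensor gene, had 384, 368 and 537 in KO and 364, 255, 337 and 337 in WT, groups that did not overlap. This was so for 3 of the 70 further type I genes, Ly6c1 among them, a share near the 3.65% of all tested genes. Of 39 tested further type II genes, estimates were higher for 20 and lower for 19 (median 0.01), and 0 passed. Those with the smallest p were Gm4951 (0.48, SE 0.30), Gbp10 (0.47, SE 0.30), Irgm2 (0.30, SE 0.19) and Gbp7 (0.46, SE 0.34), all with higher estimates. WT 2 was lowest for Gm4951, Gbp10, Irgm2 and Gbp7, as for Gbp4. Irgm2 had 1456, 1118 and 1039 in KO and 1002, 854, 1014 and 1018 in WT, without overlap, as the only 1 of the 39 tested further type II genes.

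Markers of the sorted cells and of others were read beside the library order. The 10 T and Treg cell markers summed to 56554 to 58776 normalized counts in KO and 52593 to 61765 in WT, highest in WT 2, and all 10 had reads in every library. Of these 10 markers 6 were highest in WT 2, namely Cd3e, Cd3d, Cd3g, Cd247, Cd4 and Lck. Another 3, the Treg markers Foxp3 (56.1), Ikzf2 (4832) and Ctla4 (3595), had their lowest value in WT 2. WT 2 also held the highest sums of B cell markers (4 of 6 analysed; 351 to 469 in KO, 353 to 757 in WT), CD8 and NK cell markers (7 of 7; 62.5 to 183 in KO, 159.5 to 259 in WT), stromal and epithelial markers (4 of 7; 570.0 to 738 in KO, 543 to 904 in WT) and red cell markers (5 of 7; 77.4 to 239 in KO, 642 to 2809 in WT, groups that did not overlap, mostly Hba-a2). Among B cell markers most of the sum was Cd79b, Cd79a stayed between 2.11 and 12.9, and Blk was at 0 in WT 4. Among CD8 and NK cell markers Cd8a was at 0 in WT 3, Klra8 in KO 1, KO 3 and WT 1, and Ncr1, Eomes and Gzmk in KO 3. Plasmacytoid dendritic cells, which make much type I interferon and express Bst2 and Irf7, had marker sums (7 of 9) of 1040 to 1198 in KO and 881 to 1230.3 in WT, highest in WT 2. Runx2 was the most abundant of them in the other 6 libraries, whereas in WT 2 it was at its lowest (404) and Irf8 led with 502. Their defining marker Siglech was at 24.4 in WT 2, inside the 19.0 to 40.5 of the other libraries, and Ly6d was at 0 in KO 3 and WT 2. Myeloid marker sums (13 of 13) were 3805, 1946 and 2308 in KO 1 to 3 and 2543, 3526, 1318 and 2620 in WT 1 to 4. These sums were lowest in WT 3, KO 2 and KO 3, as was the type I average. Cst3 and Lyz2 made up most of each sum. The same libraries were lowest for Lyz2, Csf1r and Mpeg1 but not for the other markers, Cst3 among them. Adgre1 and Xcr1 were highest in KO 3, and Itgam and Xcr1 were lowest in WT 2. Clec9a was at 0 in KO 3, WT 1 and WT 3, and Itgax and Flt3 were at 0 in KO 3. The part of these cells in the interferon-stimulated levels was not tested. In bulk samples more cells of a type and more RNA per cell cannot be told apart.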

How the data were processed

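RNA-seq was analysed from 7 sorted Treg cell samples, 3 KO and 4 WT, grouped by the sample titles. SmartSeq2 libraries, which keep neither strand nor molecular identifiers, were made from 10 ng of RNA and read on a NextSeq 500 with demultiplexing by bcl2fastq2 2.20, per the labels' protocols. Per the submitters' processing notes the tools were CASAVA 1.8, kallisto 0.44, Partek 6.6, R 3.3.1 and DESeq2, with the build mm10 and no role or order given. The deposited values are a normalized signal per gene, made by the authors, with a lowest value of 1. The value minus 1 is the normalized count, and in every library 100% of these were whole multiples of one step within 0.01 of a read, from which reads were recovered. Reads ranged from 4135733 to 10622507, and depth limits low genes most in KO 3.

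All 7 libraries entered 1 fit in limma (version 3.58.1, under R 4.3.3), whose input was log2(normalized count + 1) and whose prior variance followed a trend. It held the 11787 genes whose normalized count averaged 10 or more, and p-values were adjusted over them by the Benjamini-Hochberg method. The step was tested on 5 simulated data sets with 200 changed genes each. The smallest chi-square per degree of freedom between 2 libraries was 12.0, and each library was kept as a separate sample. The members, classes and other lists were chosen with earlier results of these data known. Every member is named, as are the tested receptor, kinase and inhibitor genes, except 1 that is not reported here, and of the further interferon-induced genes the 4 of each type with the smallest p. Alternatives were the added constant, the filter, TMM scaling, voom on recovered reads, the prior, array weights, a replicate block and leaving out libraries. Gene positions are from GENCODE M21.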

Additional observations from a re-analysis of the deposited data

Results flagged for a closer look

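In 2 of the 36 members one WT library lay far from the other 3, with a gap, as a share of the WT range, above Dixon's 95% critical value. Chance gives such a gap in about 1 group of 20, and 2 of 36 is near that share. The gaps were taken on normalized counts. On the log2 scale used for the differences such gaps at the high end are smaller shares of the range, and they were not computed there. Ifi27l2a was at 10559.7 normalized counts in WT 2, against 4079, 3217 and 3696 in WT 1, WT 3 and WT 4, a gap of 0.883 of the range. Ifi44 was at 149 in WT 2, against 35.2, 26.01 and 14.8, a gap of 0.848 of the range. The KO group of 3 libraries was too small for the same comparison.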

How the results depend on the processing

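No member passed in any of 16 alternatives, where the smallest adjusted p of a member was 0.920. Over all genes 4 passed with array weights, 3 with the replicate block and 4 without WT 2 and KO 3 together, against 0 otherwise. The type I median stayed negative, between -0.60 and -0.12 as single libraries were left out, and the type II median stayed positive, between 0.06 and 0.22. With array weights the type II median was 0.06, and with the replicate block it was 0.21. The median r between type I members was 0.47 without WT 2. Of the 36 members 18 kept their sign in every alternative. With array weights the sign turned for Gbp3 (-0.0053), Ly6a (0.025), Psmb8 (0.0079), Psmb9 (0.048) and Stat2 (0.019). Without WT 2 and KO 3 together it turned for Gbp3 (-0.10), Gbp4 (-0.046), Ifih1 (0.013), Isg15 (0.23), Isg20 (0.069), Ly6a (0.31), Mx1 (0.024), Psmb8 (0.21), Psmb9 (0.23), Rtp4 (0.049), Stat2 (0.034), Tap1 (0.12) and Usp18 (0.16). Under the replicate block it turned for Trim30a (0.048). WT 4 has no partner in the block, whose estimates therefore equal those without WT 4. At an unadjusted p under 0.05 the block gave 5 members and 393 genes. As single libraries were left out, the sign turned for 12 members, whose lowest and highest estimates were -0.66 and 0.085 for Ifih1, -0.48 and 0.23 for Ifit1, -0.061 and 0.20 for Irf9, -0.060 and 0.10 for Irgm1, -0.84 and 0.043 for Isg15, -0.32 and 0.19 for Ly6a, -0.33 and 0.075 for Psmb8, -0.26 and 0.13 for Psmb9, -0.44 and 0.53 for Rsad2, -0.30 and 0.011 for Tap1, -0.13 and 0.068 for Trim30a, and -0.94 and 0.0026 for Usp18. The cause of these turns was not tested. Libraries with one replicate number did not deviate together (r = 0.008, -0.036 and 0.094 for numbers 1 to 3, and KO 1 deviated most like WT 2). The labels state no pairing, and these r values cannot settle whether the numbers were paired by design. Calls under the block are not read as a stronger effect. With 3 and 4 libraries the 95% intervals reach at least 0.41 log2 units to either side, so smaller differences could not be told from none.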
